A study of Mus musculus with 12 samples.

Results

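Broad H3K4me3 domains are stretches of chromatin in which histone H3 carries trimethylation of lysine 4 over several kilobases rather than over the few nucleosomes next to a start site. Here a domain was an interval of at least 4000 bp, obtained by merging the overlapping or touching H3K4me3 peaks of both wild-type libraries on chromosomes 1 to 19 and keeping the intervals that both libraries touched. The merge gave 27552 intervals, of which 21142 were touched by both libraries and 1236 (5.85%) reached 4000 bp. The domains therefore owe their length to the wild-type lists by choice, and their wild-type widths are given as a description.

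The study compared bone marrow cells of C57BL/6 mice in which Ints11 could be deleted with those of wild-type (WT) littermates. The knockout (KO) mice were Mx1Cre+ Ints11 flox/fox, as the labels spell it, and the WT group is labelled Ints11_WT. Whether the WT littermates carried Mx1Cre, and the age of the animals, are not given in the sources used here. Cells positive for the receptor cKit and, by the series' design, negative for lineage markers were sorted 4 days after poly(I:C), which was injected to switch on the Mx1 promoter through the interferon response, and both genotypes are described under that treatment. Mx1Cre acts in every cell that answers interferon, so deletion need not be limited to blood progenitors. Each genotype had 2 mice, called WT_407, WT_409, KO_399 and KO_401 after their labels, with 1 H3K4me3 library and 1 H3K27me3 library each. The numbers are read as mice. If they were not, the spread between libraries would be technical.

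H3K4me3 is written by the Setd1 and Kmt2 methyltransferase complexes at the starts of active or poised genes. Unusually wide domains are known in many cell types for marking the genes that define that cell. H3K27me3, the product of Polycomb repressive complex 2, marks silenced genes, and nucleosomes or loci with both marks are called bivalent. Ints11 is the endonuclease of Integrator, which cuts nascent transcripts of small nuclear RNA genes and of many protein-coding genes near their start.

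Sequences from the domains are shown first because the domains held promoters of opposite base composition. The 250 bases before the start site are printed for 5 genes that come up again below, from RefSeq on GRCm38.p6, with each CG dinucleotide in capitals. They lie at chr8:126593987-126594236 (Irf2bp2, minus strand), chr6:88198414-88198663 (Gata2, plus strand), chr16:95459349-95459598 (Erg, minus strand), chr9:111019042-111019291 (Ltf, plus strand) and chr5:134229626-134229875 (Ncf1, minus strand). They hold 32, 24, 3, 4 and 2 CG dinucleotides in that order.
Irf2bp2: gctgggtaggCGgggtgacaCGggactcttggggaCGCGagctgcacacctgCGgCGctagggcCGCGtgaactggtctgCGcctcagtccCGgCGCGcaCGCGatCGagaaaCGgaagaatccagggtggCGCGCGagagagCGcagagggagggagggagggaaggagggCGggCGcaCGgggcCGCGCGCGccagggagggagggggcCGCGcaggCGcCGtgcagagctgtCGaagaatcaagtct
Gata2: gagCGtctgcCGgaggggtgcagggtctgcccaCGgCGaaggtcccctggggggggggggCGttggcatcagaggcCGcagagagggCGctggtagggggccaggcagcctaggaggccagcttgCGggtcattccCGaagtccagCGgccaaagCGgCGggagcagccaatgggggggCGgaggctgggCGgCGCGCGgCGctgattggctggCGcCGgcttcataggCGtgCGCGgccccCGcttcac
Erg: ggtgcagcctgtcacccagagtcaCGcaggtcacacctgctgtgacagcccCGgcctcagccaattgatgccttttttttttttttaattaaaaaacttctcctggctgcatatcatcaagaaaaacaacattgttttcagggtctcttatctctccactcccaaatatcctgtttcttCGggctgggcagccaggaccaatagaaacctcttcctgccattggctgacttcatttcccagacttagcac
Ltf: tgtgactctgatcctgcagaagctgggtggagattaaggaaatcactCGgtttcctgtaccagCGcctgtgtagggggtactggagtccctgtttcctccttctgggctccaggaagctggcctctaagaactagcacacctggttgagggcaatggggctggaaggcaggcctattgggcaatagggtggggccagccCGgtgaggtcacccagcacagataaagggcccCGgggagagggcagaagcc
Ncf1: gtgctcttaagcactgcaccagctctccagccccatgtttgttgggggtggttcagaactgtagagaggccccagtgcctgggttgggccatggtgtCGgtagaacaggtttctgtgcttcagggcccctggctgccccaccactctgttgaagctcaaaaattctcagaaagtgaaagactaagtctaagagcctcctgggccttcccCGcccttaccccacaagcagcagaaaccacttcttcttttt

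Irf2bp2 encodes a transcriptional corepressor and Gata2 a zinc-finger factor of stem and progenitor cells, and both have the CG-rich kind of promoter. Erg, an ETS factor of stem cells, Ltf, the granule protein lactoferrin, and Ncf1, a subunit of the phagocyte NADPH oxidase, had domains 9667 to 12104 bp long over promoters with almost no CG. Over 300 bases around the start site (250 before and 50 after), the 1349 protein-coding promoters inside domains had a median of 23 CG dinucleotides, against 22 for 10010 promoters in shorter intervals and 4 for 8725 promoters in neither. Fewer than 6 were present in 148 domain promoters (10.97%), in 5.30% of those in shorter intervals and in 31.4% of all 20084. The low-CG promoters were not spread evenly over the gene lists described below. They made up 9 of 13 granulocyte and monocyte genes with a promoter in the table (Fcgr3, Ltf, Lyz2, Mpo, Ncf1, Nfam1, Prtn3, S100a8 and S100a9), 2 of 21 progenitor transcription factors (Elf1 and Erg) and 0 of 21 immediate early genes. Domains whose promoters all had fewer than 6 CG dinucleotides numbered 85 of 929 with a promoter in the table, and their median length was 5388 bp against 4823.5 bp for the others. Short motifs were searched on both strands of the 300 bases. TATAAA was in 7.86% of domain promoters, 5.84% of those in shorter intervals and 12.7% of all promoters. CGGAAG, a core bound by ETS factors, was in 26.4%, 34.4% and 21.5% in the same order. TTGCGCAA, a site bound by C/EBP factors, was rare, with 0.667%, 0.260% and 0.219%.

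Domains also covered microRNA genes. Of 919 hairpins on chromosomes 1 to 19, 25 (2.72%) lay in 22 domains, with 37 mature names and 37 different seeds. The longest domain of all, 17290 bp at chr11:87747842-87765131, held Mir142, a microRNA gene of blood cells, together with Tspoap1. Others held Mirlet7i and Mir21a. Their mature RNAs are printed from RefSeq, with the seed (bases 2 to 8) in capitals, to show which microRNA families sat in these domains. They lie at chr11:87756867-87756887 and chr11:87756903-87756925 on the plus strand (both arms of Mir142), and at chr10:122985698-122985719 and chr11:86584120-86584141 on the minus strand. The choice of these 3 was made with their values in view.
mmu-miR-142a-5p: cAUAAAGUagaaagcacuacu
mmu-miR-142a-3p: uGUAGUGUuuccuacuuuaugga
mmu-let-7i-5p: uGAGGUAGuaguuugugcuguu
mmu-miR-21a-5p: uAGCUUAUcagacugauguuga

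Width is given as the bases covered by H3K4me3 peaks of a library within the region that results from merging the peaks of all 4 H3K4me3 libraries, which treats the genotypes alike. The 1236 domains lay in 1234 such regions. A region can be longer than its domain, since KO peaks may extend it or join it to a neighbouring WT interval, as in 120 regions (9.72%). The Mir142 region was covered by 16528, 16605, 16533 and 16621 bp when WT_407 is given first, then WT_409, KO_399 and KO_401, and runs of 4 values keep this order from here on. The let-7i region had 5474, 5644, 5401 and 5289 bp in the same order, and the Mir21a region 7776, 6576, 8177 and 7436 bp. At Mir142 and Mir21a the genotypes overlapped, and at let-7i both KO libraries lay slightly below both WT libraries.

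The libraries were described by ranges. The H3K4me3 lists held 24409 to 26922 peaks on chromosomes 1 to 19, and the H3K27me3 lists 6505 to 11748. Read totals are not used here. The background at the summits, solved from the authors' fold and p, was 2.23, 1.94, 2.65 and 1.93 reads per position for H3K4me3 and 3.09, 3.15, 3.30 and 3.67 for H3K27me3. KO_399 had the highest for H3K4me3 and also the most broad peaks, with 1582 single peaks of 4000 bp or more. The remaining H3K4me3 lists held 928 to 1055. The labelled cell type was checked by 11 genes of stem and progenitor cells. Of these, 10 had a peak at the start in each of the 4 libraries, and 7 (Kit, Gata2, Runx1, Myb, Meis1, Erg and Cebpa) had a domain. Peaks covered 68673 to 92008 bp around the 11 genes, most in KO_399. The counts for other cells were 1 of 8 T and NK cell markers in each library, 1 of the 5 erythroid markers found, 6 or 7 of 8 granulocyte and monocyte markers, and 2 or 3 of 6 stromal and endothelial markers. B cell markers differed between the WT mice, with a peak at 0 of 7 in WT_407 and 5 of 7 in WT_409, against 2 and 1 in KO_399 and KO_401. The summed widths around them were 6854, 27508, 14778 and 7144 bp. Igll1, Cd3e, Hba-a1, Hbb-bs, Col1a1 and Cdh5 had none in any library.

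Domain lengths ran from 4000 to 17290 bp with a median of 4874.5 bp. There were 682 under 5000 bp, 494 between 5 and 8 kb and 60 of 8 kb or more, of which 23 reached 10 kb. The 19906 shorter intervals had a median of 1416 bp. The domains were 5.85% of intervals but held 6.60 of 38.04 Mb (17.4%). At the threshold, the domains of Haspin, a mitotic histone kinase, and Nup153, a nuclear pore protein, and a domain on chromosome 17 that marked no gene were 4000 bp long. The intervals of Fpr2, a formyl peptide receptor, Wac and Nrp1, a semaphorin receptor, were 3999, 3997 and 3997 bp long and were left out. Their covered widths in WT_407 and WT_409 were 3786 and 4239 bp at Haspin inside the threshold and 3055 and 3999 bp at Fpr2 outside it, so members at the edge differ from non-members by little.

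Most domains were broad in each animal. In 918 regions both WT libraries covered at least 4000 bp, in 290 only 1 of them did, and in 26 neither did alone. All 4 libraries covered 4000 bp or more in 873 (70.7%). No domain region was without an H3K4me3 peak in any library, which for the KO libraries was not fixed by the rule. Between 73.9% and 90.6% of the regions were covered by 1 unbroken peak. Their strongest peak had a median percentile of 83.6 to 84.99 within its own list by the authors' fold, and 34.0% to 37.2% were in the top 10% of the list, so width and height were related but not the same.

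Only 10 regions had less than 2000 bp in any library, 9 of them in a WT library (5 in WT_407 and 4 in WT_409), 3 in KO_401 and 0 in KO_399. Ebf1, a B-lymphoid transcription factor, had 302, 4539, 4047 and 1521 bp, in the order of the summed width at the 7 B cell markers given above, of which it is 1. The part of B-lineage cells in this was not tested. The 4 low regions of WT_409 were those of Usp18, Oas1g and Tgtp2, all induced by interferon, and 1 within the Cep85 gene. At Oas1g the widths were 5696, 1687, 5785 and 5298 bp, and at Tgtp2 4967, 1916, 5337 and 4864 bp, in the order WT_407, WT_409, KO_399 and KO_401. In each case WT_409 was low and WT_407 was within the range of the KO libraries or close to it.

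The domains marked 1310 protein-coding genes, or 6.34% of 20661, and 220 long noncoding RNA genes. A gene was marked when a RefSeq start site lay in the domain (1073 genes) or, for genes without a listed start site, when an end of the gene did (237 genes, for which the domain may be at the other end of the gene). Of the 11692 protein-coding genes in any H3K4me3 interval of both WT mice, 11.2% were in a domain. A single protein-coding gene was marked by 916 domains (74.1%), 2 or more by 191 (15.5%, against 4.90% of shorter intervals), and none by 129 (10.4%, against 51.2%). One domain on chromosome 7 joined Hcst and Tyrobp, which encode adaptors of immune receptors, to Nfkbid, which encodes an IκB protein. It was 12143 bp long and covered by 11265, 12143, 12040 and 11734 bp.

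The 97 domains that marked no gene of either kind had their nearest listed gene end at a median of 6344 bp, and 77 lay inside a gene. Several were on genes of blood cells. A domain of 6284 bp lay inside Lmo2, which encodes a bridging protein of the progenitor transcription factor complex, and was covered by 6284, 4917, 5752 and 5518 bp. A domain of 6808 bp lay on Nfe2, a factor of platelet and red cell genes, and ended 1197 bp from a listed end, with 6129, 6808, 6329 and 6594 bp. A domain of 4299 bp lay on Hoxa9, a homeobox gene of stem cells, and ended 351 bp short of its listed start site. Its region was covered by 6291 and 4661 bp in WT and by 7417 and 7285 bp in KO, so both KO libraries were wider. H3K27me3 also lay on this domain, over 4299, 4299, 3055 and 4299 of its 4299 bp. These 3 were chosen after their values were seen.

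**Figure D1:**
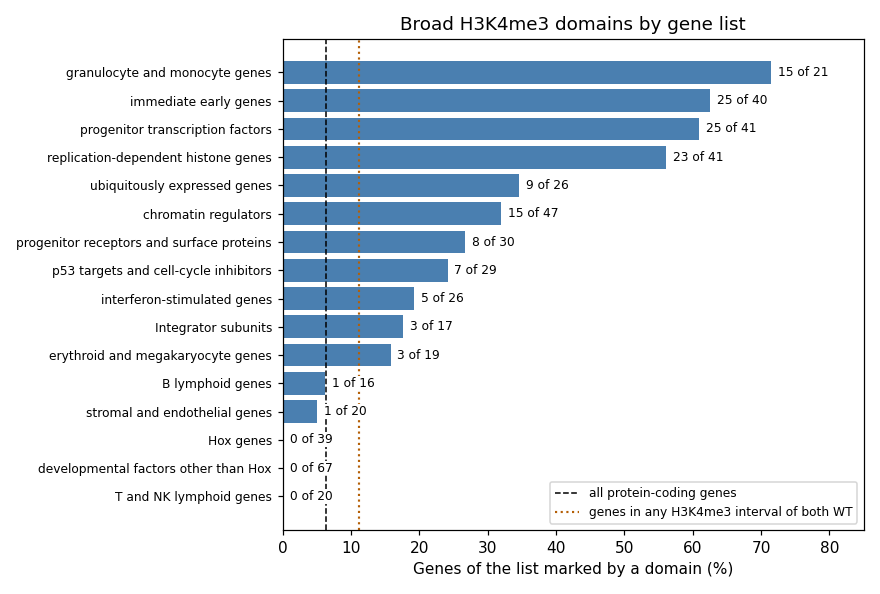
Share of each gene list marked by a broad H3K4me3 domain (horizontal axis, percent of the genes found), with the counts beside the bars. The dashed line is the share of all protein-coding genes (6.34%) and the dotted line the share of genes in any H3K4me3 interval of both WT libraries (11.2%). The bars of granulocyte and monocyte genes, immediate early genes and progenitor transcription factors pass 60%, and those of Hox genes, other developmental factors and T and NK genes are at 0.

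The bar plot of gene lists shows which kinds of gene had domains. These shares are descriptions, since the lists were drawn up with earlier results of these data known. Domains marked 25 of 41 progenitor transcription factors (61.0%), 15 of 21 granulocyte and monocyte genes (71.4%), 25 of 40 immediate early genes (62.5%) and 23 of 41 replication-dependent histone genes (56.1%). They marked 15 of 47 chromatin regulators, 9 of 26 ubiquitously expressed genes, 8 of 30 progenitor receptors and surface proteins, 7 of 29 p53 targets and cell-cycle inhibitors, 5 of 26 interferon-stimulated genes, 3 of 17 Integrator subunits (Ints7, Ints12 and Nabp2) and 3 of 19 erythroid and megakaryocyte genes. Genes of other cell lineages had few domains, with 1 of 16 B lymphoid genes (Ebf1), 0 of 20 T and NK genes and 1 of 20 stromal and endothelial genes (Vcam1). No start site of 39 Hox genes, the Hoxa9 domain above being the near miss, and none of 67 other developmental factors was in a domain.

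In 753 domains with a single protein-coding gene and a listed start site, the position of that site was known. The domain reached a median of 1250 bp upstream (quartiles 814 and 1706) and 3670 bp downstream (quartiles 3048 and 4660), and the downstream side was longer in 696 (92.4%). In 7178 shorter intervals the medians were 629 and 1262 bp, and the downstream side was longer in 88.8%. A median of 75.1% of a domain was thus downstream of the start, against 67.0% of a shorter interval. The strongest summit lay a median of 344, 325, 367 and 349 bp downstream of the start in WT_407, WT_409, KO_399 and KO_401, on the first nucleosomes of the gene. The histogram of domain ends shows this lopsided shape.

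**Figure D2:**
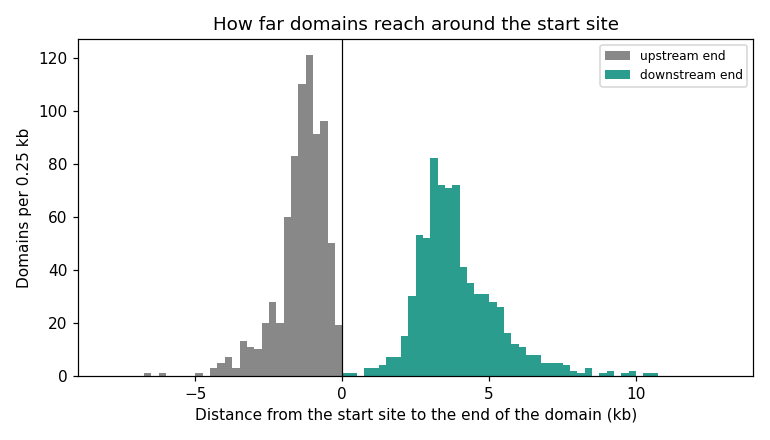
Distance from the start site to the upstream end (grey, negative) and the downstream end (green, positive) of 753 domains with a single protein-coding gene, in kb along the direction of transcription, counted in bins of 0.25 kb. The upstream ends pile up around the median of 1250 bp and the downstream ends spread around the median of 3670 bp.

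The 10 longest domains, of which that of Mir142 and Tspoap1 was the first, included chromatin and myeloid genes. Irf2bp2 had 12690, 13442, 13323 and 12734 bp, always in the order WT_407, WT_409, KO_399 and KO_401. Kdm6b, a demethylase of H3K27me3, had 12509, 12695, 12763 and 12417 bp. At both, WT and KO values overlapped. Wfdc21, which encodes a small secreted protein, had 8877, 12613, 12279 and 11499 bp, and Ltf had 9128, 11829, 11759 and 10980 bp. WT_407 was the low library at both, as it was at 10 of the 15 granulocyte and monocyte domains and at 581 of all 1234 domain regions. The rest were Zbtb7b (12432, 12550, 12619 and 12645 bp), a factor best known from helper T cells, B3gnt2 (11683 to 12541 bp), a sugar transferase, the Hcst, Nfkbid and Tyrobp domain, Ncf1 (10944 to 12104 bp) and the domain of Glb1l, Stk16 and Tuba4a (11704 to 12175 bp). Of these, both KO libraries were above both WT libraries at Zbtb7b and B3gnt2, by small margins.

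Among progenitor factors the widest domains belonged to Bcl11a, a zinc-finger repressor of fetal globin, with 9981, 10331, 10200 and 9852 bp, Erg with 8241, 9667, 9598 and 9240 bp, and Gfi1, a repressor of stem cells and neutrophils, with 9614, 9066, 11623 and 10363 bp. Only at Gfi1 did the genotypes separate, with both KO libraries wider. Etv6, an ETS repressor, had 8334, 8543, 8621 and 7561 bp, and Lyl1, a basic helix-loop-helix factor, had 7711, 8064, 8274 and 7650 bp. Both overlapped between genotypes. Ikzf1 (Ikaros, a lymphoid and myeloid factor) had 7347, 7611, 8079 and 7746 bp, and its relative Ikzf2 (Helios) had 6537, 6674, 8290 and 7713 bp. At both of these the KO libraries were the wider ones, at Ikzf1 by a small margin. Meis1, a homeobox factor of stem cells, had 7395, 7268, 7885 and 7500 bp, Fli1, an ETS factor, 7104, 6944, 7207 and 6981 bp, and Zeb2, a repressor of the zinc-finger homeobox kind, 6788, 5915, 6813 and 6063 bp. Cxcr4, the receptor that holds progenitors in the marrow, had 5564, 6498, 6584 and 6342 bp, and Myc, the growth factor-responsive regulator, 6294, 6395, 6633 and 6467 bp. Of these 12, the KO libraries were both above WT at Gfi1, Ikzf1, Ikzf2, Meis1 and Myc.

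**Figure D3:**
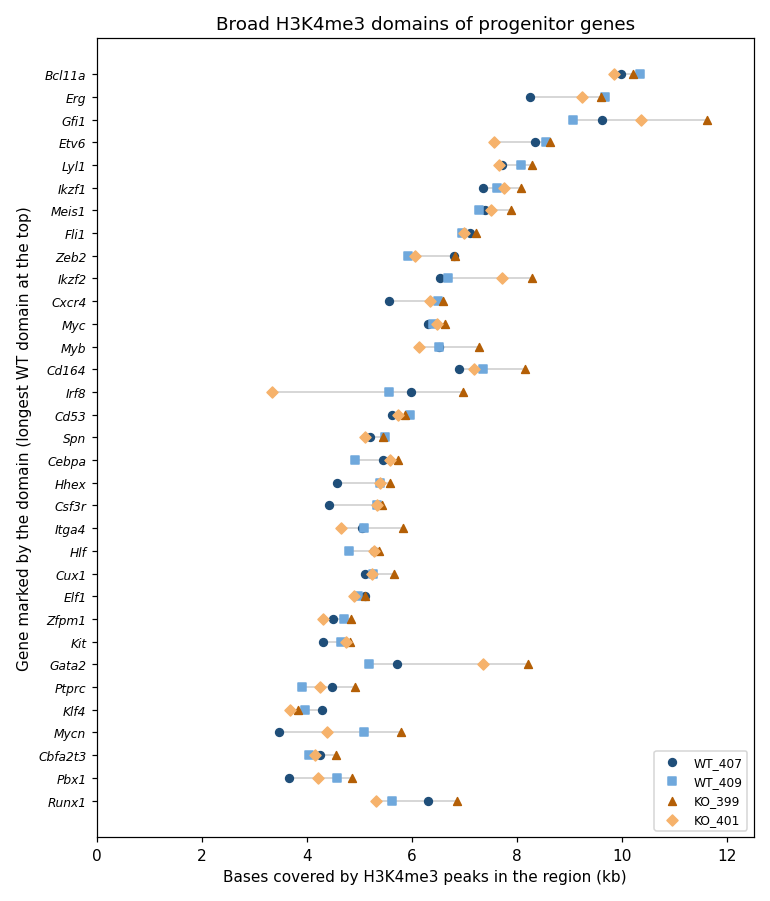
Bases covered by H3K4me3 peaks (horizontal axis, kb) in the regions of the 33 domains that mark progenitor transcription factors, receptors and surface proteins, 1 symbol per library and no error bar, ordered by the length of the WT domain. The symbols of a gene mostly lie close together and mixed, and the widest gaps between genotypes are at Gata2 (5703 and 5183 bp in WT, 8203 and 7355 bp in KO) and Ikzf2.

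The comparison of KO with WT asked whether loss of Ints11 changed the width of the domains. No domain passed. With limma on log2(covered bp + 500), 0 of 1234 regions were narrower and 0 were wider at an adjusted p under 0.05, where 0% of all 25108 regions tested passed, and the lowest adjusted p of a domain was 0.818. At an unadjusted p under 0.05 there were 1 narrower domain (Ppp1cc) and 20 wider ones, or 1.70% of the domains against 4.69% of all regions. On simulated data of this size the same fit recovered 44% of changes of 0.5 and 96% of changes of 1 on the log2 scale. Changes of less than 0.5 were thus mostly below what 2 mice per genotype can show. The simulation gave regions of similar mean width the same spread, which real regions need not have. The shares can therefore be too high for the real data, and they do not show that a change of 1 would be found here. Differences were small in the domains. The median log2 difference was 0.05, with 5% to 95% of domains between -0.06 and 0.24, and 10 domains (0.810%) differed by more than 0.5, against 10.3% of all regions. All regions include those without a peak in some libraries, and of the 19504 regions held by all 4 libraries, as every domain is, 280 (1.44%) differed by more than 0.5 and 2.53% had an unadjusted p under 0.05.

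By the second rule, which asks whether the genotypes overlap, both KO libraries were below both WT libraries in 27 domains (2.19%, against 7% of all regions) and above in 291 (23.6%, against 21.3% of all regions). This surplus of wider domains rested on KO_399, the library with the highest H3K4me3 background. KO_399 was wider than both WT libraries in 940 domains (76.2%, against 64.8% of all regions) and KO_401 in 315 (25.5%, against 24.0%), while KO_401 was narrower than both in 362. The median covered width of a domain was 4632.5, 4786, 5220 and 4681.5 bp. Its mean was 4709 ± 109 bp for the WT mice and 4951 ± 381 bp for the KO mice (SD over 2 mice, two-sided exact permutation p = 0.667). KO_401 lay between the WT mice, so the medians did not separate. The smallest p that 2 against 2 can give is 0.333. With each library centred on its median over all regions, the counts were 128 below (10.4%) and 148 above (11.99%). All regions gave 15.6% below and 14.8% above, so the domains separated less often in both directions. Without KO_399 the median log2 difference of the domains was 0.0036. Counts by the second rule for that setting are not compared with those above, since a single KO library makes the rule easier to meet. Counting only bases inside the WT domain gave 51 below and 107 above, with the width of every library capped by the WT domain. WT_407 had the next highest background and the lowest median width. The part of depth in this was not tested.

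**Figure D4:**
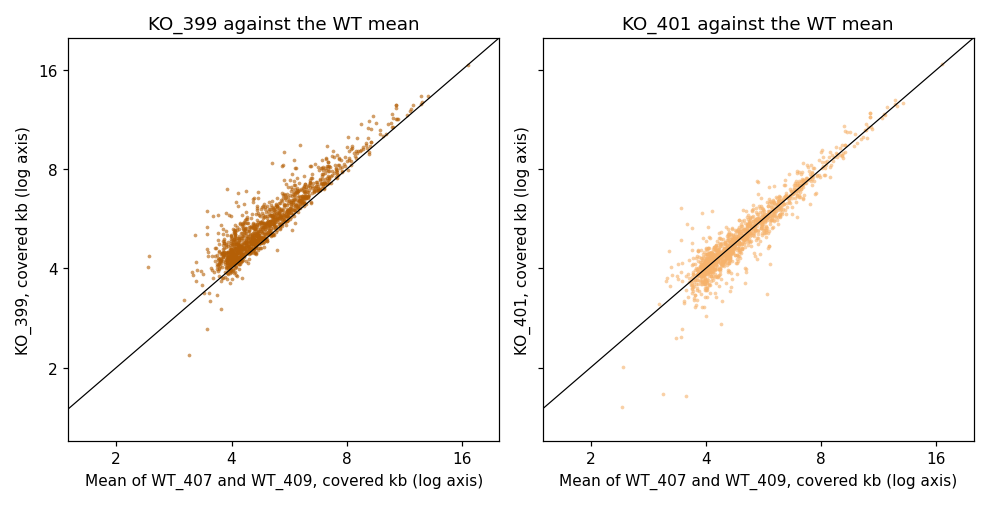
Covered width of the 1236 domains in KO_399 (left) and KO_401 (right) against the mean of the WT libraries, both in kb on log axes, 1 point per domain, with the line of equality. Points of KO_399 lie mostly above the line (median ratio 1.08) and those of KO_401 around it (median ratio 1.00).

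The rule applied to both KO lists gave a mirror of the domain set that was not chosen on WT. It found 1635 domains. Of the 1236 WT domains, 1174 (94.98%) overlapped one of them, and of the 1635, 1173 (71.7%) overlapped a WT domain. The 462 without a WT domain had a median length of 4287 bp, close to the threshold. In the regions of this mirror set both KO libraries were above both WT libraries in 510 (31.2%) and below in 20. The KO widths chose this set, which favours that direction, so the counts are a description. None passed limma. Protein-coding genes marked went from 1310 to 1738, with 1250 in both sets. Among progenitor factors, Klf4 was in the WT set only, and Ldb1 and Nkx2-3 were in the KO set only. The interferon-stimulated genes went from 5 marked in the WT set to 10, with Ifih1, Ifit1, Irf1, Oas1a and Oasl2 added. Of these, Ifit1 (3127, 881, 4805 and 3865 bp) and Oas1a (3465, 1577, 4181 and 2887 bp) were lowest in WT_409. So were Oasl2 (3821, 1611, 4019 and 3506 bp) and, by less, Ifih1 (3787, 3533, 4322 and 4105 bp). Irf1 was lowest in WT_407 (3576, 3668, 4737 and 3808 bp). Ubiquitously expressed genes went from 9 to 14, histone genes from 23 to 30, and the p53 targets and cell-cycle inhibitors from 7 to 9, with Bbc3, Cdkn1a and Mdm2 added and Pmaip1 lost. The region of Bbc3 was already covered by 5949 and 5859 bp in WT, against 6295 and 6044 bp in KO. Cdkn1a had 2575, 2611, 6605 and 3228 bp, so only KO_399 passed 4000 bp there. Mdm2, the ubiquitin ligase of p53, was covered by 2953 and 3162 bp in WT and 5512 and 4403 bp in KO (log2 difference 0.61 ± 0.12 SE), and Csf2rb, the shared receptor chain of several myeloid cytokines, by 4918 and 4411 bp in WT and 6663 and 6147 bp in KO (0.42 ± 0.09 SE). At both, the KO libraries were above WT, and neither passed after adjustment. Both were chosen after their values were seen.

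In each direction 5 domains were named for the largest mean difference among those whose genotypes did not overlap, and none of them passed. Lower in KO were Pabpc4, a poly(A)-binding protein (3131, 4370, 3012 and 3062 bp), Ppp1cc, a catalytic subunit of protein phosphatase 1 (4421, 4093, 3737 and 3604 bp, log2 difference -0.19 ± 0.07 SE), the domain of the lectin genes BC035044 and Clec2i (5040, 5105, 4999 and 4015 bp), that of Septin10 and Sowahc (4781, 4936, 4627 and 4211 bp), and Klf4, a Krüppel-like factor of monocytes (4281, 3955, 3820 and 3672 bp). At Pabpc4 and the lectin genes the nearest libraries of the groups almost met, and the mean difference rested on WT_409 (-0.04 without it) and on KO_401 (-0.02 without it). The differences ran from -0.25 to -0.12.

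Higher in KO were a domain within Cep85 (5174, 1726, 5960 and 6114 bp, log2 difference 0.88 ± 0.48 SE), Usp18, which removes the ubiquitin-like ISG15 from proteins (5392, 1761, 5750 and 5458 bp, 0.74 ± 0.49 SE), Lipg, a lipase of endothelium (4956, 2840, 6975 and 5907 bp, 0.70 ± 0.27 SE), Gda, a guanine deaminase (3713, 4594, 6776 and 5969 bp, 0.57 ± 0.13 SE), and the domain of Shisa5 and Trex1, a DNA exonuclease (6669, 4279, 9013 and 6721 bp, 0.50 ± 0.26 SE). In 4 of the 5, WT_409 was the low library. Without WT_409 the difference at Usp18 was 0.05, and without WT_407 it was 1.43, so this value rests on which WT mouse is taken. Leaving out 1 library at a time gave 0.20 to 1.55 at the Cep85 domain, 0.34 to 1.05 at Lipg and 0.18 to 0.79 for Shisa5 and Trex1, the lowest without WT_409 at the first 2 and without KO_399 at the last. From the start of Shisa5 the domain reached 1312 and 491 bp upstream in WT and 3752 and 3713 bp in KO, and 4998 to 5356 bp downstream in all 4 libraries. Gda was the exception, with both KO libraries clearly apart from both WT libraries (limma, adjusted p = 0.864). Its domain began 391 to 634 bp upstream of the start site in every library and reached 3321 and 4628 bp downstream in WT against 6247 and 5334 bp in KO.

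Gata2 was singled out after its values were seen, as the domain with the lowest p of all (limma, adjusted p = 0.818). Its region was covered by 5703, 5183, 8203 and 7355 bp, a log2 difference of 0.48 ± 0.09 (SE). Both KO libraries were wider than both WT libraries. The upstream limit was alike, 5017 to 5207 bp before the start site in all 4 libraries. The downstream limit was 1908 and 1479 bp in WT and 2995 and 2839 bp in KO. WT_407 had 2 separate peaks there, WT_409 3, KO_401 3 and KO_399 1 unbroken peak of 8203 bp. Within the WT domain alone, chr6:88196013-88200572, the difference was 0.09. No library can cover more than the WT domain there, so a small value was set in advance and does not show where bases were added. H3K27me3 covered the WT domain from end to end in all 4 libraries (4560 of 4560 bp).

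Zfp36l1, which encodes a decay factor for AU-rich messenger RNAs, was also chosen after its values were seen. It had 5924 and 5797 bp in WT and 8033 and 7039 bp in KO, a log2 difference of 0.33 ± 0.09 (SE), and H3K27me3 over 4045, 4396, 1130 and 3818 bp. Its H3K4me3 reached 1930 and 2000 bp downstream of the start in WT and 3473 and 2805 bp in KO. Upstream it reached 3993 and 3796 bp in WT and 4559 and 4396 bp in KO, so both KO libraries lay farther out there. The downstream limit of KO_401 was that of a separate peak of 659 bp with a fold of 5.80, near the lowest deposited fold. Its main peak ended at 1983 bp, between the WT limits. Only in KO_399 did the main peak reach farther downstream than in WT. With 1 KO library left out the log2 difference at Zfp36l1 was 0.42 without KO_401 and 0.11 without KO_399. At Gfi1, named above, the difference was 0.22 ± 0.10 (SE), and the downstream limit was 7232 and 6376 bp in WT and 8320 and 7685 bp in KO, with the upstream limit at 2578 and 2689 bp against 3302 and 2791 bp. At these genes too, the difference within the WT domain alone was small (0.10 at Gda and 0.03 at Zfp36l1). The WT domain caps the covered width there as well.

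By gene list, the counts of domains with both KO libraries above both WT libraries, beside 23.6% of all domains, were 7 of 25 for progenitor factors (1 below, Klf4), 2 of 8 for progenitor receptors (Kit and Csf3r), 1 of 15 for granulocyte and monocyte genes (Cebpb, 1 below, Klf4), 11 of 25 for immediate early genes (0 below), 3 of 15 for chromatin regulators (1 below, Kmt2a), 4 of 9 for histone gene domains, 2 of 5 for interferon-stimulated genes, 1 of 7 for p53 targets and cell-cycle inhibitors and 2 of 9 for ubiquitously expressed genes. The median log2 differences of the lists with at least 5 domains were 0.06, 0.09, 0.02, 0.09, 0.03, 0.08, 0.24, 0.10 and 0.06 in the same order, beside 0.05 for all domains.

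Immediate early genes, which cells switch on within minutes of a stimulus, had 11 domains with both KO libraries above WT. Jun, an AP-1 subunit, had 4817 and 4966 bp in WT and 6121 and 5590 bp in KO (log2 difference 0.24 ± 0.07 SE, not passing after adjustment), and its partner Junb 6816 and 6438 bp in WT and 7081 and 6967 bp in KO. At both, KO was above WT, by little at Junb. Fos, the other AP-1 partner, had 5279, 5847, 5864 and 5287 bp with the genotypes overlapping, and the inhibitor of NF-κB Nfkbia had 4832, 5612, 6069 and 5734 bp.

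At interferon-stimulated genes the WT mice differed from each other. Isg15, the ubiquitin-like protein, had 5409, 3267, 5492 and 4930 bp. Irf9, a subunit of the interferon-activated transcription factor, had 4278, 3064, 4397 and 3771 bp, and B2m, the light chain of the MHC class I molecules that present antigen, 8636, 6091, 9107 and 8226 bp. WT_409 was lowest at these 3 and at Usp18, so at 4 of the 5 domains of the list, and at 285 of all 1234 domain regions (23.1%). Socs1, an inhibitor of cytokine signalling, was lowest in WT_407 instead (3766, 4052, 4342 and 4094 bp).

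The writers and erasers of these marks had domains of their own. Setd1b, a methyltransferase of H3K4, had 10753, 10865, 11314 and 10767 bp, Kmt2d 5761, 5928, 5989 and 5948 bp, and Kmt2a 4810, 4870, 4786 and 4596 bp. The log2 differences were 0.03, 0.03 and -0.04, and the genotypes overlapped at Setd1b only. Ezh2, the methyltransferase of H3K27, had 3545, 4371, 3605 and 3059 bp with overlapping genotypes (log2 difference -0.22 ± 0.13 SE). Ints7 had 4868, 5070, 5159 and 4593 bp, and Ints12 4884, 5390, 5444 and 5300 bp, both Integrator subunits and both overlapping between genotypes. Among cell-cycle genes, Cdkn1b had 4466, 5012, 5514 and 4745 bp and Trp53 4787, 5085, 5447 and 5074 bp, again overlapping.

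The 23 histone genes lay in 9 domains of a cluster on chromosome 13, so they share domains, and near-identical gene copies there make read placement uncertain. A domain with H2ac11, H2bc11 and H4c9 had 4437 and 4927 bp in WT and 6532 and 5314 bp in KO, and that with H2ac10, H3c8 and H4c8 had 7568, 7720, 8228 and 8037 bp. WT_407 was the lowest library at all 9 domains, beside 581 of 1234 domain regions in all. Peak positions do not test whether Ints11 was deleted, and this was not checked here.

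H3K27me3, which the rule did not use, was rarer on domains than on shorter intervals. At least 1 bp of H3K27me3 lay in 83 and 96 domains in WT_407 and WT_409 (6.72% and 7.77%) and in 49 and 68 in KO_399 and KO_401 (3.96% and 5.50%). Among shorter intervals the shares were 16.2%, 17.7%, 11.6% and 14.5%. Domains had the lower share in each of the 4 libraries although they are longer and so have more room for an overlap. In a window of 500 bp on each side of the strongest H3K4me3 summit, H3K27me3 was in both WT libraries at 3.72% of domains and 15.03% of shorter intervals, and in both KO libraries at 2.51% and 11.01%. These shares are descriptions of the 4 libraries without a test. The order of the genotypes depended on how much was called, since with the same covered length taken from each H3K27me3 list the shares were 1.78% of domains in both WT and 2.99% in both KO libraries.

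**Figure D5:**
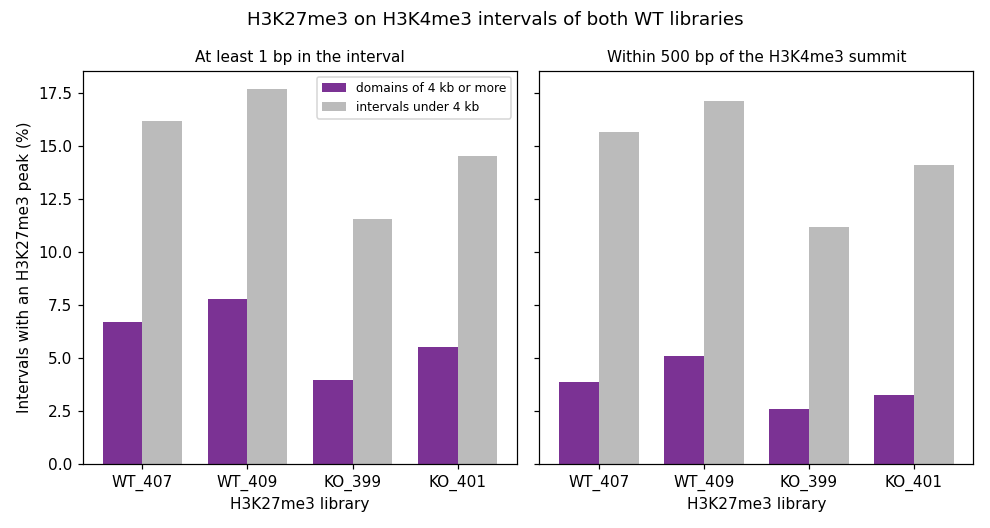
Percent of H3K4me3 intervals with an H3K27me3 peak in each H3K27me3 library, for 1236 domains (purple) and 19906 shorter intervals (grey), over the whole interval (left) and within 500 bp of the strongest H3K4me3 summit (right). The purple bars are under the grey bars in all 4 libraries, and the KO libraries are under the WT libraries for both kinds of interval.

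H3K27me3 was in both WT libraries at 77 domains (6.23%) and in both KO libraries at 47 (3.80%), and those 47 also had it in both WT libraries. Both WT and neither KO library had it at 10 domains (0.81%), and the reverse was seen at 0. Among shorter intervals the counts were 270 (1.36%) and 0, so the pattern was not more frequent on domains. Over all 1236 domains it covered 211, 263, 114 and 177 kb, which is 237 ± 36.5 kb for the WT mice and 146 ± 44.3 kb for the KO mice (SD over 2 mice, exact permutation p = 0.333, the smallest possible). KO_399 was the lowest and WT_409 the highest, and the genotypes did not overlap. Of 80 domains with H3K27me3 in at least 2 libraries, 47 (58.8%) had less of it in both KO libraries than in both WT libraries and 0 had more. The same was seen in 27.5% of 3271 such H3K4me3 intervals of any length, many of them short and wholly covered in every library, and in 79.8% of 7540 whole H3K27me3 regions. Leaving out intervals wholly covered in all 4 libraries, the share was 61.8% of domains and 44.6% of shorter intervals. The domains thus followed the direction of H3K27me3 across the lists. Fewer cells with the mark and less of it per cell cannot be told apart in bulk chromatin.

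A set of 18 domains was covered by H3K27me3 over at least 90% of their length in both WT libraries, and 8 of them also in both KO libraries. The 8 were those of Meis1, Gata2, Klf4, Efna5, an ephrin, Dusp4, a phosphatase of MAP kinases, Nr3c2, the mineralocorticoid receptor, Phf21b, and 1 on chromosome 14 that marked no gene. Meis1 had 7272, 7404, 7314 and 7404 bp of H3K27me3 in its domain of 7404 bp, and was the domain with the most in WT. It also had both KO libraries above WT in H3K4me3 (7885 and 7500 bp against 7395 and 7268 bp). Both marks were thus called over most of the domains of Meis1, Gata2 and Klf4, in a population of cells where each mark may sit in different cells.

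At other domains much of the H3K27me3 was not found in KO. Lipg had 4848 and 4998 bp in WT and 383 and 0 bp in KO, and its H3K4me3 was the wider one in KO (above). The domain of the noncoding gene Gm12827 had 5295 and 5295 bp in WT and 0 and 3526 bp in KO, with H3K4me3 at 5101, 4992, 5457 and 4735 bp and no separation. Nfil3, a basic leucine zipper factor of innate lymphoid cells, had 2611, 2962, 0 and 605 bp, and Bcl2l11, the pro-apoptotic Bim, 2754, 3026, 0 and 2829 bp. KO_399 alone was at 0 in the last. Nfil3 and Bcl2l11 were chosen after their values were seen. Among the domains with most H3K27me3 in WT were also Pcdh7, a protocadherin (5159, 6229, 3728 and 5572 bp), Ccnd2, the D-type cyclin of progenitors (3849, 6692, 3246 and 3967 bp), and a domain inside Mmp9, a matrix metalloprotease (6968, 4254, 3090 and 4066 bp). The genotypes overlapped at Pcdh7 and Ccnd2 and not at Mmp9, and KO_399 was the lowest library at all 3.

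The 10 domains with H3K27me3 in both WT and neither KO library marked Map3k9, Igf1r, Tnrc18, Ppp2r5a, Map3k1, Arhgap27, Kdm2a, Smarca2, Gpsm3 with Pbx2, and no gene in 1 case on chromosome 15. At Map3k9, a kinase, it was 2137 and 1607 bp, at the chromosome 15 domain 1739 and 2260 bp, and at Pbx2, a partner of homeobox factors, 315 and 423 bp. Of the 77 domains with H3K27me3 in both WT libraries, 18 (23.4%) were wider for H3K4me3 in both KO libraries, which is close to the 23.6% of all domains.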

How the data were processed

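Chromatin immunoprecipitation and sequencing of H3K4me3 and H3K27me3 gave 8 peak lists, and the 4 chromatin input libraries are not analysed here. Per the labels' protocols, chromatin was fixed with 1% formaldehyde, sheared to 100 to 300 bp and read at 75 bp. The submitters' processing notes name the mm10 build, MACS2, Bowtie2, deepTools, SAMtools, Trim Galore and FastQC, with versions not given in the sources used here. The authors deposited 1 list per library, with peak positions, a score, a fold enrichment (a ratio) and −log10 p-value and −log10 q-value columns. Every deposited fold was above 5, so weaker sites are missing from the lists, and a width ends where the signal falls under the caller's limit. These values are the authors' and were used within a list only.

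The domains were found by the rule in the report. Width was computed as covered bp in regions merged over all 4 H3K4me3 lists and held by at least 2 libraries (25108 regions), and log2(covered bp + 500) was tested with limma 3.58.1 (trend, R 4.3.3) with Benjamini-Hochberg adjustment over all regions. A second rule asked whether both KO libraries lay outside both WT libraries. Single values were compared by two-sided exact permutation. The fit was tested on simulated data with a common spread for regions of similar mean width, with 3 false calls. Background reads were solved from each summit's deposited fold and −log10 p-value, and 100% of summits were solved within 0.001. H3K27me3 overlap needed 1 bp. Genes and promoters came from RefSeq tables, which list a start site for 79.6% of protein-coding genes. Markers were looked for within 2000 bp of the start. Python 3.11.15 was used for the rest.

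The members and lists were chosen with earlier results of these data known. Named were the 10 longest domains, the 5 with the largest mean difference in each direction among those whose genotypes did not overlap, the 12 longest of the progenitor lists, the 5 with most H3K27me3 in WT, and the 3 on each side of the length limit. Other genes given with values fall outside this rule, among them members of the gene lists picked for description. Only some of them are marked in the text as chosen after their values were seen. The alternatives were another centring, pseudocount, filter, merging distance, length limit, peak threshold and choice of lists, and leaving out each mouse.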

Additional observations from a re-analysis of the deposited data

How the results depend on the processing

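No domain passed limma under any alternative that kept both mice of each genotype. All 153 values of named domains kept their direction, but this was largely fixed in advance. At each of these domains the genotypes did not overlap in the main setting. A changed pseudocount or filter, or a mouse left out, then leaves the sign as it was. Of the other values, 120 were classed as unchanged, 23 as moved and 2 as reversed in sign. A count was classed as unchanged within 1.5 times the reported count, and a median difference if it kept its sign, whatever its size. A percentage was classed as unchanged within a binomial interval over the 1236 domains. That interval treats domains as replicates and does not measure the spread between mice. With each library centred, 128 domains were below and 148 above, and the median log2 difference turned to -0.00141. Inside the WT interval alone, which caps the width of every library, 51 were below and 107 above. Domains chosen on both KO lists gave 510 above, and those chosen on all 4 lists 517. A length limit of 3000 bp gave 2974 domains, 3107 genes, 82 below and 737 above, and one of 5000 bp gave 554 domains, 586 genes, 10 below and 122 above. Leaving out 1 mouse at a time gave 33 to 360 below and 315 to 939 above. Each such setting leaves a single library in 1 genotype, which makes the second rule easier to meet. These counts therefore cannot be compared with the main counts, and no conclusion is drawn from them. The median KO minus WT width was -26.5 to 507 bp (main value 241.5 bp, below 0 without KO_399). The share with H3K27me3 in the KO libraries kept was 3.13% to 5.50%. The 5.50% was that of KO_401 alone, with KO_399 left out. Within 500 bp of the summit H3K27me3 was in both WT at 3.72% and in both KO at 2.51%. With equal covered length it was in both WT at 1.78% and in both KO at 2.99%, so the order of the genotypes turned. The classes above were set for each genotype on its own and do not count this as a reversal. Beyond what these constructions change, the cause was not tested. No paired analysis was possible because the WT and KO mice carry different numbers. Depth limits the reach of a peak, and sites under the authors' fold limit are not seen.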
